A study of Mus musculus with 77 samples.

Results

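Mitochondrial ribosomal protein (MRP) mRNAs were followed in mouse livers lacking either of the iron regulatory proteins, Aco1 (IRP1) or Ireb2 (IRP2). They were taken as every gene whose symbol begins with Mrpl or Mrps and a digit, pseudogenes left out. This rule found 78 genes among the 25266 in the count tables, 49 named for the large subunit (Mrpl) and 29 for the small subunit (Mrps). Livers came from whole-body knockouts (Aco1-/- or Ireb2-/-) and from wild-type controls of the same line (Aco1+/+ or Ireb2+/+). All were adult males of 12 to 24 weeks on a C57BL/6J background. They were collected under a light-dark cycle at Zeitgeber time 5 (ZT5, in the light phase) or ZT12 (at lights-off). Each of the 8 groups held 3 mice, and each of the 24 livers gave 1 library of ribosome-protected fragments (RPF, or footprints) and 1 of total RNA. The study asked how loss of each iron regulatory protein alters liver translation, and whether this depends on the time of day.

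The mitochondrial ribosome makes the few respiratory chain subunits that mitochondrial DNA encodes. Its RNAs come from that genome, but all its proteins are encoded in the nucleus, translated on cytosolic ribosomes and imported. About a conserved core shared with bacterial ribosomes lies a layer of proteins that are specific to mitochondria. A footprint on one of these mRNAs thus reports on cytosolic translation of a part of the mitochondrial machine.

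Promoter sequences show what some of these genes share upstream. RefSeq sequences (build GRCm38.p6), running from 250 bases before to 50 bases after the start, were matched for 69 of the 78 genes and compared with 27025 promoters in all. Each motif was searched on both strands. GCGCANGC, the core of sites for the nuclear respiratory factor NRF1, was in 21 of 69 (30.4%) and in 10.1% of all promoters. CCGGAAG, a core of sites for ETS factors such as GABP, was in 25 (36.2%) and in 9.12% of all. AAGATGG, from the YY1 site, was in 13 (18.8%) and in 6.48% of all. SP1-type GGGGCGG was in 34.8% against 23.4%, CCAAT in 39.1% against 37.9%, and TATAAA in 5.8% against 14.2%. Other gene groups held the same letters. In 63 cytosolic ribosomal protein promoters the shares were 15.9% for NRF1, 36.5% for ETS and 14.3% for YY1, and in 77 respiratory chain promoters they were 35.1%, 26% and 14.3%. These matches are descriptions of letters, not of binding. Windows of 30 bases are shown, with the motif in capitals, for some of the genes whose footprints fell at ZT12 below. Others that fell, among them Mrpl1, Mrpl40, Mrpl50 and Mrps25, held no NRF1, ETS or YY1 letters. The first base of the motif lies 35 bases before the start in Mrpl44, 33 before in Mrpl22, 55 before in Mrpl27, 19 before in Mrpl3 and 12 before in Mrpl43. It lies at position 15 from the start in Mrps27.
Mrpl44, NRF1 letters, chr1:79775972-79776001, plus strand: aagaagcacttGCGCACGCgcagtacacta
Mrpl22, NRF1 letters, chr11:58171620-58171649, plus strand: ggcctcggactGCGCATGCgtatagtcagc
Mrpl27, ETS letters, chr11:94653725-94653754, plus strand: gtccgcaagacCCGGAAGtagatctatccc
Mrpl3, ETS letters, chr9:105053238-105053267, plus strand: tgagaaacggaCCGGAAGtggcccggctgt
Mrpl43, ETS letters, chr19:45006436-45006465, minus strand: caaccccggaaCCGGAAGtcaccggttagt
Mrps27, YY1 letters, chr13:99344789-99344818, plus strand: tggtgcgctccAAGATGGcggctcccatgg

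Cytosolic ribosomal protein mRNAs are known to begin with a C followed by a pyrimidine tract. The windows around the start of 2 of them and of 2 MRP genes are shown, with capitals for a tract (C, then 4 or more C or T) only where it begins within 5 bases of the annotated start. Letters of this kind lying further from the start stay in lower case.
Rps6, chr4:86857353-86857382, minus strand: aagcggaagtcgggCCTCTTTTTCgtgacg
Rpl13a, chr7:45128731-45128760, minus strand: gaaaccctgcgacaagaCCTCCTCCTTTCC
Mrpl50, chr4:49521069-49521098, minus strand: tggctgagtcgggcacgtctggcgctcttg
Mrpl20, chr4:155802863-155802892, plus strand: tgactttcggaagagctgtcagtgctctta
Within 5 bases of the annotated start, such a tract on the gene's strand was found in 15 of 69 MRP promoters (21.7%), 30 of 63 cytosolic ribosomal protein promoters (47.6%), 21 of 77 respiratory chain promoters (27.3%) and 18.5% of all. The windows above are examples and do not stand for their lists. Mrpl44, Mrpl22, Mrpl3 and Mrps27 hold such a tract, and the cytosolic Rps3 and Rpl4 do not. This search was added after the data had been seen.

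Counts within coding sequences (CDS) came to 852293 to 3993492 per RNA library and 2448915 to 13439600 per RPF library. MRP genes took 0.172 to 0.229% of RNA counts and 0.174 to 0.261% of RPF counts, and the median member had 48.75 RNA and 163.5 RPF counts per library. Levels are given as CPM, counts scaled to library size. Footprints on Aco1 were 410 ± 70.2 CPM in Aco1+/+ and 79.8 ± 4.46 in Aco1-/- livers at ZT5, and 561 ± 43.4 and 110 ± 12.7 at ZT12 (SD, n = 3). Footprints on Ireb2 were 62.3 to 81.4 CPM in Ireb2+/+ and 32.5 to 41.2 in Ireb2-/- livers, while its RNA overlapped between genotypes. All 8 hepatocyte markers passed the filter on low counts, as did all 6 Kupffer cell, 6 endothelial and 6 stellate markers and 4 of 5 cholangiocyte markers (Sox9, Krt19, Spp1 and Epcam, not Krt7). None of the 3 lymphocyte markers Ptprc, Cd79a and Trbc2 passed. One RNA library, Ireb2+/+ ZT5 replicate 3, stood apart in mitochondrially encoded mRNAs, which took 0.947% of its CDS counts against a median of 4.11%. In these bulk livers, fewer cells of a type and less RNA per cell cannot be told apart.

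Of the 78 genes, 76 passed the filter and were tested among 10696 genes. Mrpl53 had no CDS count in any library and only 8 RNA counts over all positions. Mrpl23 had 14 RNA and 2 RPF counts in its CDS, and 76 RNA counts over all positions. The 76 comprised 29 large-subunit proteins with a bacterial counterpart, 20 specific to the mitochondrial large subunit, 16 small-subunit proteins with a counterpart, 10 specific to the small subunit, and Mrps36, which is better known as a part of the 2-oxoglutarate dehydrogenase complex. Summed over the 76, RNA was 1463 to 1970 CPM in the 24 livers (median 1645) and footprints were 2129 to 3128 CPM (median 2308). Levels of different genes were not set against each other, because no coding lengths were used here. In RNA, the mice differed most for Mrps36 (SD of log2 CPM 0.83), Mrps33 (0.61) and Mrpl36 (0.57). Mrps36 was near the limit of detection, with a median of 2.5 RNA counts per library.

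**Figure D1:**
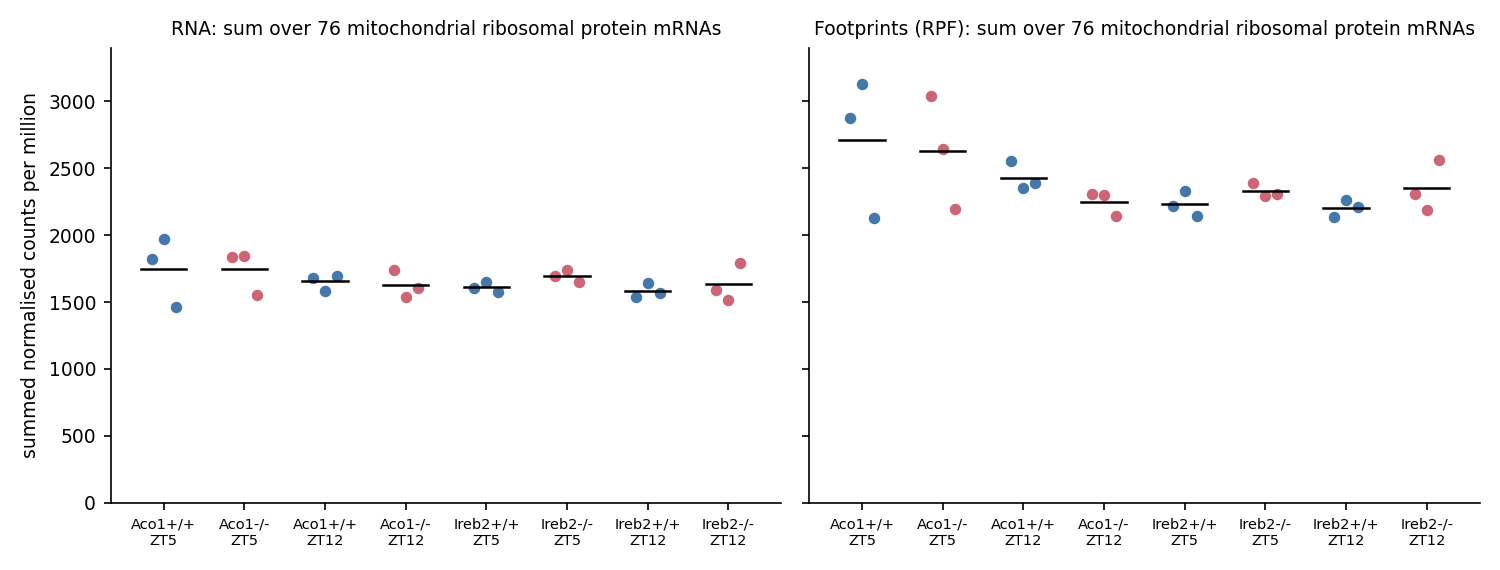
Summed RNA (left) and footprints (right) of the 76 MRP mRNAs, in normalised CPM, for each of 3 mice per group, with bars at group means. RNA lies between 1463 and 1970 in every liver, and footprints are highest in replicates 1 and 2 of both genotypes of the Aco1 line at ZT5 (2871, 3128, 3041 and 2642), where replicate 3 has 2129 and 2194.

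Translation efficiency (TE), the ratio of RPF to RNA CPM with gene length cancelled, was high for most MRP mRNAs. Their median log2 TE over the 24 mice was 0.57 (quartiles 0.30 and 0.89), against 0.11 for all genes tested (quartiles -0.55 and 0.62). The zero of this scale depends on how RPF and RNA libraries are scaled to each other, so ranks are given beside it. Of the 76, 33 lay above the upper quartile of all genes, 12 below the median and 1 below the lower quartile. Only 7 (9.21%) lay below 0, as did 44.8% of all genes. The median was 0.78 for 92 nuclear-encoded respiratory chain genes (subunits and assembly factors) and -0.52 for 74 cytosolic ribosomal proteins and paralogs. No test was made of these differences between lists.

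By role, the medians were close: 0.57 for large-subunit proteins with a bacterial counterpart, 0.58 for those specific to mitochondria, 0.55 for small-subunit proteins with a counterpart and 0.64 for those without. The highest means were those of Mrpl55 (1.57), a large-subunit protein, Mrps6 (1.57), a small-subunit protein, Mrps18b (1.57), Mrpl43 (1.37), specific to the mitochondrial large subunit, and Mrps36 (1.35). Those of Mrps6 and Mrps36 rest on a median of 6 and 2.5 RNA counts per library. The lowest were those of Mrps24 (-0.70), Mrpl30 (-0.48), Mrpl42 (-0.48), Mrps10 (-0.24) and Mrpl12 (-0.18). Mrpl12 forms the flexible stalk that contacts translation factors. Mrps24 had a log2 TE below 0 in all 24 mice, with a highest value of -0.10. Within groups the SD of log2 TE between mice was 0.306 for the median gene, so that neighbours in this order did not differ beyond their spread. The 3 genes named Mrps18 stood at 0.65 (Mrps18c), 1.24 (Mrps18a) and 1.57 (Mrps18b).

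**Figure D2:**
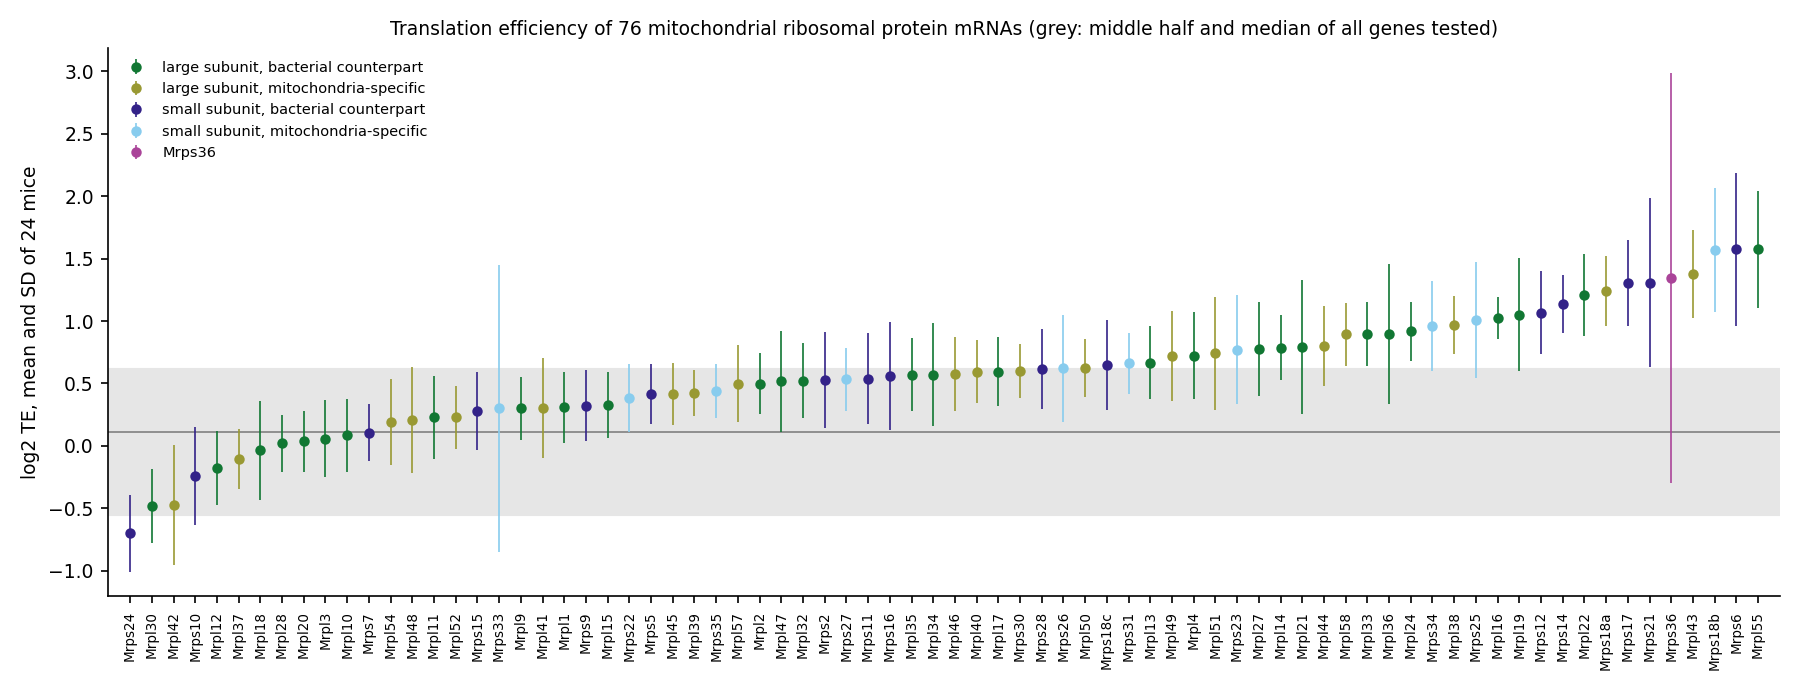
Mean log2 TE over 24 mice (points, with SD) of each of the 76 MRP mRNAs, ordered from lowest to highest and coloured by subunit and bacterial counterpart, with the grey band from the lower to the upper quartile of all genes tested (-0.55 to 0.62). The values run from -0.70 for Mrps24 to 1.57 for Mrpl55, and the colours are mixed along the order.

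Subunits known by other symbols were read beside them. Log2 TE was 0.83 for Gadd45gip1 (also called CRIF1, at the exit of the large subunit), 0.76 for Dap3 (the GTP-binding protein of the small subunit), 0.16 for Chchd1, 0.03 for Aurkaip1 and -0.10 for Ptcd3, a pentatricopeptide repeat protein. The first 2 lay above the median of the 76 and the other 3 below it.

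The median TE over the 76 lay between 0.45 and 0.73 in each of the 24 mice. Medians were 0.63 to 1.02 for the respiratory chain and -1.90 to 0.40 for cytosolic ribosomal proteins. At ZT5 the median of cytosolic ribosomal proteins ranged from -1.90 to -0.26 and at ZT12 from -0.85 to 0.40, while for MRP mRNAs the ranges were 0.45 to 0.73 and 0.45 to 0.65. In Aco1+/+ the MRP medians were 0.73, 0.72 and 0.63 at ZT5 and 0.55, 0.51 and 0.57 at ZT12, without overlap. In each of the other 3 genotypes the times overlapped.

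**Figure D3:**
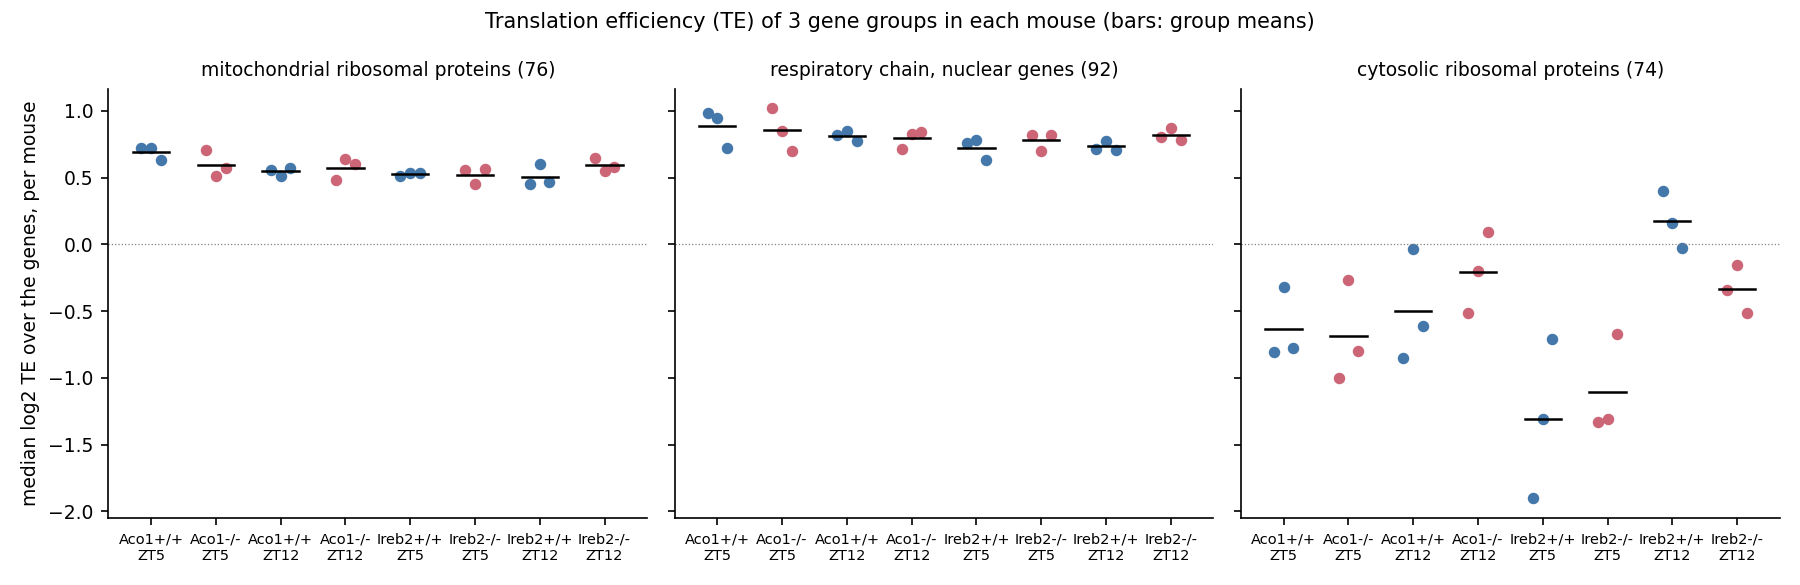
Median log2 TE over the genes of 3 groups in each mouse (points, 3 per group of genotype and time; bars are group means). The 76 MRP mRNAs keep between 0.45 and 0.73 in every liver, whereas the 74 cytosolic ribosomal protein mRNAs range from -1.90 to 0.40.

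Reads 5′ of the coding sequence were few for most members. The share of RPF counts in the 5′ UTR column had a median of 0.294% over members and 2.16% over all genes tested. With counts pooled over genes, it was 3.315% for members and 2.08% for all genes tested. The share of a single gene exceeded 10% in 10 members (13.2%), against 17.8% of all genes, and 20% in 5 members (6.58%), against 6.60% of all. Mrps21, a small-subunit protein, had the highest, 42.1% (28.2 to 51.0% in the 24 mice), beside 26.7% of its RNA counts. Mrpl42 followed with 35.6% (16.5 to 47.2%), beside 19.4% of RNA. Mrpl30 had 28.8% (15.5 to 37.8%), close to the 26.5% of its RNA. For Mrps21 the mean was 40.8% ± 7.0 at ZT5 and 41.0% ± 6.91 at ZT12 (SD, n = 12 each), so that the times overlapped. Mrpl42 and Mrpl30 were among the 3 lowest in TE of the CDS, whereas Mrps21 had a log2 TE of 1.31.

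The first comparison asked whether loss of Aco1 or Ireb2 altered MRP mRNAs. No member passed an adjusted p of 0.05 (edgeR quasi-likelihood test) in any of the 8 contrasts of knockout with control, in RNA, in RPF or in TE. These contrasts were, for each line, ZT5, ZT12, both times averaged, and the difference between times. Of all genes, 0.0374% were called in at least 1 of the 8 in RNA, 0.533% in RPF and 0.103% in TE, so that calls were rare among all genes as well. DESeq2 also called no member in any of these contrasts. At an unadjusted p under 0.05, the averaged contrast in RPF gave 8 members in Aco1-/- (1 higher, 7 lower) and 8 in Ireb2-/- (all higher), where 8.67% and 11% of all genes did.

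Averaged over times, the median log2 difference of Aco1-/- from Aco1+/+ was -0.09 over members (0.01 over all genes), and 17 of 76 were positive (52.5% of all genes). In Ireb2-/- the median was 0.08 (0.03 over all genes), and 68 of 76 were positive (56.9% of all). Within groups, the median log2 CPM over members varied between mice with an SD of 0.17 in RPF and 0.11 in RNA, and the differences between genotypes were not tested as a list. Members share libraries and their scaling, so these counts are not independent observations. In RNA the medians were -0.05 and 0.05, with 29 and 49 of 76 positive.

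Mrps33, a small-subunit protein specific to mitochondria, came closest to a call at ZT12. Its footprints in Aco1+/+ were 1.55, 1.35 and 1.56 CPM and in Aco1-/- 4.57, 3.12 and 2.89 CPM. The groups did not overlap, and the log2 difference was 1.25 (standard error, SE, 0.34, edgeR adjusted p = 0.142). At ZT5 the same genotypes overlapped (3.74, 3.16 and 1.36 against 3.04, 2.66 and 2.23 CPM). In the Ireb2 line the averaged difference was 0.80 (SE 0.28, edgeR adjusted p = 0.287), from 1.40, 1.77 and 1.43 CPM in controls and 4.39, 2.94 and 2.03 in knockouts at ZT5, and 0.96, 1.02 and 2.7 against 2.64, 3.09 and 2.85 at ZT12. It did not pass in either line, and it is among the members with the lowest counts.

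Mrps25, also specific to the mitochondrial small subunit, was lower in Aco1-/- at ZT12. Its footprints were 19.1, 17.3 and 16.7 CPM in controls and 10.2, 8.84 and 14.1 in knockouts. The groups did not overlap, with a log2 difference of -0.69 (SE 0.20, edgeR adjusted p = 0.162). It was not called in this fit of 12 livers, but it was the 1 member called with all 24 mice in one fit, and again without Aco1-/- ZT12 replicate 3. At ZT5 the knockouts had 21.4, 23.6 and 18.1 CPM, within the controls' 26.2, 21.9 and 16.8. Mrps14 was next at ZT12 (log2 difference -0.45, SE 0.17, edgeR adjusted p = 0.288). Mitochondrially encoded mRNAs, which these ribosomes translate, took 6.47, 5.04 and 7.21% of RNA counts in Aco1-/- at ZT12, and 4.25, 4.94 and 4.24% in Aco1+/+. In RPF libraries they took 0.436 to 0.531% and 0.205 to 0.269%. In RNA 0 of 12 were called by edgeR, with 8 at an unadjusted p under 0.05 (median log2 difference 0.49). In RPF 6 of 12 were called higher than in Aco1+/+ (median 1.00), among 32 genes called of 10696. Their part in the results for this group was not tested.

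In Ireb2-/-, Mrpl27, which lies near the peptidyl transferase centre, had 15.8, 15.8 and 19.5 CPM at ZT12 and controls 12.2, 11.8 and 11.4 CPM. These groups were separate, with a log2 difference of 0.54 (SE 0.16, edgeR adjusted p = 0.398). After Mrps33, and ordered by p rather than by size, the averaged contrasts in RPF were led by Mrps21 (0.35) and Mrpl34 (0.31) in Ireb2-/-, and by Mrpl9 (-0.31), Mrps25 (-0.38) and Mrps18a (-0.30) in Aco1-/-, none of which passed. By size, differences reached -0.86 in Aco1-/-. In TE, again ordered by p, the leading members of the averaged contrasts were Mrpl47 (-0.60) and Mrps16 (0.55) in Aco1-/- and Mrpl35 (-0.46) and Mrpl27 (0.51) in Ireb2-/-, none of which passed. By size, differences reached -0.77 in Aco1-/- and 0.97 in Ireb2-/-.

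The second comparison set ZT12 against ZT5 over all 4 genotypes, 12 mice against 12. In RPF, 11 of 76 members (14.5%) were called, all of them lower at ZT12. Of all genes, 31.8% were called, 1458 higher and 1945 lower. In RNA, 7 members (9.21%) were called, 6 lower and 1 higher, against 22.3% of all genes. The share of members lay below the background in both readouts, a difference that was not tested, and their median log2 changes were small, -0.10 in RNA (all genes -0.04) and -0.10 in RPF (all genes -0.04). In TE no member was called, against 0.486% of all genes, with a median change of -0.01. At an unadjusted p under 0.05 there were 3 in TE, all lower, and DESeq2 called 1, Mrpl15.

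Called footprints were spread over the roles: 4 of 29 large-subunit proteins with a bacterial counterpart (Mrpl1, Mrpl3, Mrpl22, Mrpl27), 3 of 20 specific to the large subunit (Mrpl40, Mrpl44, Mrpl50), 2 of 16 small-subunit proteins with a counterpart (Mrps14, Mrps18c) and 2 of 10 specific to the small subunit (Mrps25, Mrps27). Mrpl44, Mrpl50 and Mrps27 were called in both RNA and RPF, that is 3 of the 7 RNA calls and 3 of the 11 RPF calls.

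Mrpl44, a large-subunit protein with a ribonuclease III-like fold, had the smallest adjusted p. Its footprints at ZT5 had a lowest value of 27.2, a median of 33.3 and a highest of 45.9 CPM, and at ZT12 16.3, 24.3 and 28.1 CPM. All 12 ZT12 livers were below the ZT5 median, and 9 of 12 were below every ZT5 liver. The log2 change was -0.47 (SE 0.09, edgeR adjusted p = 0.00011). Its RNA was 13.9, 18.0 and 23.95 CPM (lowest, median, highest) at ZT5 and 10.9, 13.2 and 19.7 at ZT12, a log2 change of -0.37 (SE 0.11, edgeR adjusted p = 0.016). Its RNA and footprints thus fell by similar amounts, and its log2 TE change was -0.09 (SE 0.13).

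Mrpl1, a protein of the mobile L1 stalk, changed in footprints. It had 34.1, 41.1 and 46.2 CPM (lowest, median, highest) at ZT5 and 28.3, 32.0 and 37.1 at ZT12, with 9 of 12 ZT12 livers below every ZT5 liver. The log2 change was -0.33 (SE 0.07, edgeR adjusted p = 0.00035). Its RNA changed by -0.16 (SE 0.10) and its TE by -0.18 (SE 0.11), neither called. The footprint calls of Mrpl44 and Mrpl1 were made with any of the 24 mice left out and in all 8 other settings tried.

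Mrpl50, specific to the mitochondrial large subunit, had footprints of 31.4, 38.2 and 54.6 CPM (lowest, median, highest) at ZT5 and 26.7, 32.9 and 38.4 at ZT12. The ranges overlapped, with a log2 change of -0.33 (SE 0.08, edgeR adjusted p = 0.0023). Mrps27, a pentatricopeptide repeat protein, had 40.3, 48.5 and 54.6 CPM at ZT5 and 29.1, 39.0 and 51.3 at ZT12, with 8 of 12 ZT12 livers below every ZT5 liver (log2 change -0.27, SE 0.08, edgeR adjusted p = 0.0073). The remaining 7 fell by 0.22 to 0.34 on the log2 scale: Mrpl27 (-0.34), Mrps25 (-0.33), Mrps14 (-0.29), Mrps18c (-0.27), Mrpl22 (-0.26), which lines the exit tunnel, Mrpl40 (-0.24) and Mrpl3 (-0.22). Their edgeR adjusted p-values ran from 0.0034 for Mrps14 to 0.026 for Mrpl22. In the Ireb2 line alone the changes of Mrps25, Mrps14 and Mrps18c were -0.02, -0.03 and 0.01, and none of the 3 was called there. Mrpl50 (-0.13) and Mrpl40 (-0.11) were not called there either. From the first sequencing run alone Mrpl3 changed by -0.12, not called. Each of the 9 footprint calls other than those of Mrpl44 and Mrpl1 was lost in at least 1 other setting. Mrpl22 and Mrpl3 were each called in 3 of 7 other settings and Mrpl27 in 4 of 7. The rest were called in 6 or 7 of the 7 or 8 tried.

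In RNA, Mrpl36, a small large-subunit protein, fell furthest. It had 7.62, 11.7 and 18.6 CPM (lowest, median, highest) at ZT5 and 3.74, 7.61 and 14.4 at ZT12, with overlapping ranges and a log2 change of -0.61 (SE 0.18, edgeR adjusted p = 0.013). It was called in 5 of 8 other settings and with any mouse left out, and counted over all positions of the transcript its change was -0.15 (edgeR adjusted p = 0.345). Mrps24 fell from 39.8, 53.4 and 62.7 to 31.4, 43.1 and 52.2 CPM, all 12 ZT12 livers lying below the ZT5 median (log2 change -0.28, SE 0.09, edgeR adjusted p = 0.018). Mrpl50 (-0.28), Mrps27 (-0.28) and Mrpl24 (-0.24) also fell. The Mrpl24 call was made with 8 of 24 mice left out in turn and in 4 of 9 other settings, with -0.10 in the Ireb2 line alone. That of Mrps27 was made with 14 of 24 left out and in 3 of 9 settings. That of Mrpl50 was made with 23 of 24 left out and in 5 of 9 settings, with -0.12 from the first sequencing run alone. Mrps24 had -0.15 in the Ireb2 line alone, where it was not called. Each of the 7 RNA calls was lost in at least 1 other setting. Mrpl20, which binds early in large-subunit assembly, was the only member called higher in RNA, from 22.7, 31.2 and 48.0 to 33.0, 39.9 and 52.9 CPM (log2 change 0.26, SE 0.09, edgeR adjusted p = 0.034). No ZT12 liver was below the ZT5 median in Mrpl20. Its change was 0.52 in the Ireb2 line alone and -0.01 in the Aco1 line alone. With RNA counted over all positions of the transcript, instead of the CDS, 13 members were called, among them Mrps24, Mrpl44 and Mrpl50, while Mrpl36, Mrps27, Mrpl24 and Mrpl20 were not. The share of all genes called in that setting is not given here.

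**Figure D4:**
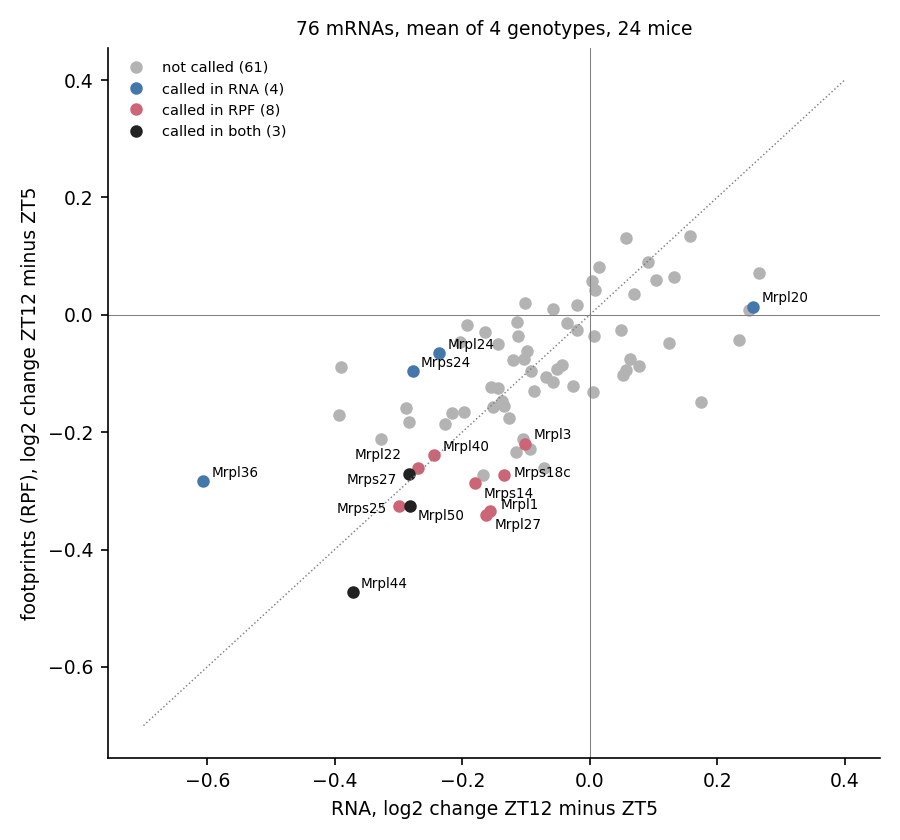
Log2 change from ZT5 to ZT12 of each of the 76 MRP mRNAs in RNA (horizontal) and footprints (vertical), averaged over 4 genotypes and 24 mice, with called members named and coloured and the dotted line marking equal change. All 11 members called in RPF lie below 0, with Mrpl44 lowest at -0.47, and Mrpl20 is the only one of the 7 called in RNA to lie above 0.

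Mrpl15, a large-subunit protein, had the smallest adjusted p in TE. Its log2 TE was 0.28, 0.45 and 0.91 (lowest, median, highest) at ZT5 and -0.15, 0.17 and 0.50 at ZT12, with 11 of 12 ZT12 livers below the ZT5 median. The change was -0.33 (SE 0.08, edgeR adjusted p = 0.0514), just outside the threshold. Its adjusted p was 0.0461 under TMM scaling and 0.349 with RNA counted over all positions.

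The number of calls depended on single livers, though many of the calls over all genotypes did not. In RPF those of Mrpl44, Mrpl1, Mrps25, Mrpl27, Mrps27, Mrpl50 and Mrps14 were made with any mouse left out. In RNA this held for Mrps24, Mrpl36 and Mrpl44. With 1 mouse left out the RPF count over all genotypes ran from 7 (without Aco1-/- ZT5 replicate 1) to 21 (without Aco1-/- ZT5 replicate 3), and it was 19 without Aco1+/+ ZT5 replicate 3. The RNA count ran from 4 to 9, the lowest without Ireb2-/- ZT5 replicate 2. Summed MRP footprints differed most between mice in these groups, 2709 ± 519 CPM in Aco1+/+ and 2626 ± 424 in Aco1-/- at ZT5 (SD, n = 3), against SDs of 49.8 to 192 in the other groups. Summed MRP RNA was lower in the same replicates 3, with 1463 and 1553 CPM against 1819, 1970, 1836 and 1843 in replicates 1 and 2. Respiratory chain footprints split the same livers, with 20405, 21861, 21587 and 19816 CPM in replicates 1 and 2 and 15605 and 16027 in replicate 3. The part of this split in the calls was not tested beyond these fits.

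Within single genotypes, 3 mice against 3, calls were few. In Aco1+/+ edgeR called no member in RNA (7.05% of all genes) or RPF (6.64% of all), with 6 and 10 at an unadjusted p under 0.05 and none by DESeq2. RPF calls in Aco1+/+ rose to 4 without ZT5 replicate 3. In Aco1-/- none was called in RNA (5.15% of all) and 5, all lower at ZT12, in RPF (12.1% of all). In Ireb2+/+ none was called in RNA (2.29% of all) and 1, Mrpl27, in RPF (7.53% of all). In Ireb2-/- 1, Mrpl20, was called in RNA (2.77% of all) and none in RPF (5.73% of all). In TE none was called within any of the 4 genotypes, where 0.692% of all genes were called in at least 1.

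The 5 that fell in Aco1-/- were Mrps25, Mrpl43, Mrps14, Mrps18c and Mrpl50. Mrps25 had 21.4, 23.6 and 18.1 CPM at ZT5 and 10.2, 8.84 and 14.1 at ZT12, without overlap (log2 change -0.93, SE 0.20, edgeR adjusted p = 0.0063). Mrpl43 had 54.4, 46.9 and 35.9 CPM at ZT5 and 24.4, 29.99 and 25.5 at ZT12, again separate (-0.79, SE 0.17, edgeR adjusted p = 0.0064). Mrps14, a small-subunit protein with a bacterial counterpart, had 70.1, 64.0 and 50.6 CPM at ZT5 and 36.3, 34.2 and 40.5 at ZT12 (-0.74, SE 0.17, edgeR adjusted p = 0.0090). In Aco1+/+ the same 3 genes had overlapping times for Mrps25 and Mrpl43, and for Mrps14 54.8, 43.7 and 52.6 CPM at ZT12 against 70.7, 70.5 and 48.2 at ZT5. No difference between the time effects of Aco1-/- and Aco1+/+ was called for any member. By DESeq2, 6 members were called in RPF in Aco1-/-. Without Aco1-/- ZT5 replicate 1, 1 of the members was called in Aco1-/-, without ZT12 replicate 2, 3, and without ZT5 replicate 3, 14.

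Mrpl27 in Ireb2+/+ had 17.2, 17.5 and 16.4 CPM at ZT5 and 12.2, 11.8 and 11.4 at ZT12, separate groups with little spread (log2 change -0.53, SE 0.15, edgeR adjusted p = 0.032). Mrpl20 RNA in Ireb2-/- had 29.6, 22.7 and 30.4 CPM at ZT5 and 44.5, 40.3 and 43.3 at ZT12 (log2 change 0.62, SE 0.16, edgeR adjusted p = 0.035). With any 1 of the 6 mice of its genotype left out, neither was called.

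**Figure D5:**
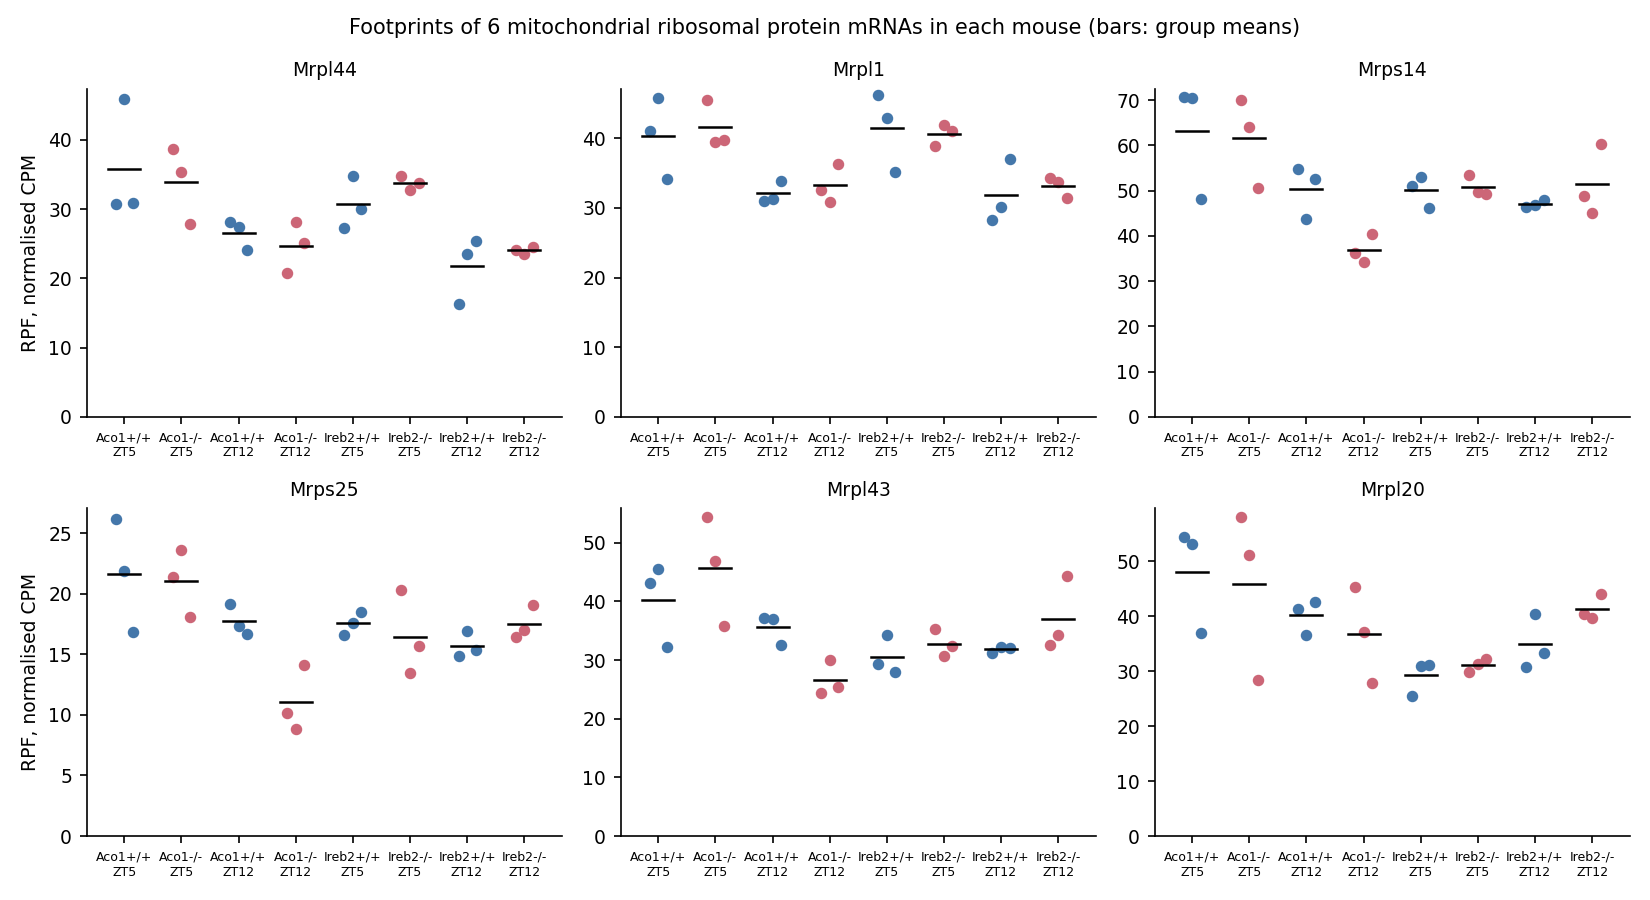
Footprints in normalised CPM of 6 MRP mRNAs in each mouse, by line, genotype and time, with bars at group means. Mrpl44 and Mrpl1 are lower at ZT12 in both lines, whereas Mrps25, Mrps14 and Mrpl43 are lowest in Aco1-/- at ZT12, with Mrps25 at 8.84 to 14.1.

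The lines were then compared, a comparison added after the data had been seen. In the Aco1 line, with both genotypes averaged, 11 members were called in RPF, all lower at ZT12 (22.2% of all genes were called), with a median over members of -0.22. In the Ireb2 line 5 were called (17.2% of all genes), Mrpl44, Mrps27 and Mrpl1 lower and Mrpl20 and Mrpl51 higher, with a median of 0.01. Mrpl1 and Mrpl44 were called in both, 2 of 11 and 2 of 5. The log2 changes of Mrpl44 were -0.46 and -0.49, and those of Mrpl1 -0.34 and -0.33.

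The difference between lines was itself called for 5 members (6.58%), against 3.19% of all genes. All 5 fell in the Aco1 line relative to the Ireb2 line. Mrpl43 differed by -0.62 (SE 0.15, edgeR adjusted p = 0.025), with footprints at ZT5 of 43.2, 45.5 and 32.3 CPM in Aco1+/+ and 29.3, 34.2 and 27.99 in Ireb2+/+, and at ZT12 of 37.2, 37.0 and 32.5 against 31.2, 32.3 and 32.1. Mrps6 differed by -0.93, Mrps18a by -0.54, Mrpl30 by -0.59 and Mrpl57 by -0.55. Mrps6 footprints over both genotypes of the Aco1 line were 5.56 to 10.8 CPM at ZT5 and 3.64 to 7.80 at ZT12, and in the Ireb2 line 4.88 to 7.16 and 6.14 to 10.5. Without any 1 of 5 mice, Aco1+/+ ZT5 replicates 1 and 2, Aco1-/- ZT5 replicate 1, Ireb2+/+ ZT5 replicate 1 and Ireb2-/- ZT12 replicate 3, the count was 0, and without Aco1-/- ZT5 replicate 3 it was 15. Over all 10696 genes, 341 were called with all mice, 161 to 277 in those 5 fits and 770 in the fit with 15. No member differed between lines in RNA or TE. The line and anything else that differed between the mice of the 2 lines cannot be told apart.

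Other parts of mitochondrial gene expression were read from lists of genes, beside a background of 1458 genes higher and 1945 lower of 10696 in the same comparison. Over all genotypes, footprints fell at ZT12 for 4 of 15 mitochondrial translation factors and related proteins and rose for 1. Those that fell were the initiation factors Mtif2 (-0.30) and Mtif3 (-0.34), the release factor Mtrf1 (-0.41) and Taco1 (-0.33), an activator of cytochrome c oxidase translation, and the 1 that rose was Lrpprc (0.38), which stabilises mitochondrial mRNAs. Among 24 mitoribosome assembly genes 6 fell and none rose, including Mterf4 (-0.42), Mtg2 (-0.35) and Ddx28 (-0.28). Of 5 mitochondrial transcription genes, Mterf2 (-1.12) and Tefm (-0.48), the elongation factor, fell and Tfb2m (0.40), an initiation factor, rose. Of the 5 subunits with other symbols, Chchd1 fell (-0.23). No gene of these lists was called in TE.

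By comparison, 61 of 74 cytosolic ribosomal protein mRNAs rose in footprints at ZT12 and none fell, with a median of 0.68, and 15 rose in TE. In RNA 1 rose. By line, 8 of the 74 rose in footprints in the Aco1 line (median 0.14) and 68 in the Ireb2 line (median 1.16). Of 92 respiratory chain genes, 4 rose and 14 fell in footprints and none was called in TE (8 at an unadjusted p under 0.05). By line, 5 rose and 21 fell in footprints in the Aco1 line (median -0.22), where 4 were called lower in TE, and 3 rose and 2 fell in the Ireb2 line (median 0.08), with none called in TE (10 at an unadjusted p under 0.05). Markers of cell types moved too. Of 8 hepatocyte markers, 3 were called higher at ZT12 in RNA (median 0.14) and 4 in RPF (median 0.20). In RPF, 2 of 6 endothelial, 1 of 6 stellate and 1 of 5 erythroid markers were called lower, and none of 6 Kupffer cell markers. The erythroid markers include Alas2, whose rhythmic translation in liver the paper takes to come most likely from hepatocytes. Of the cholangiocyte markers, 3 of 4 tested were lower in RPF at ZT12, and their summed footprints ran from 38.7 to 109 CPM at ZT5 and from 24.3 to 65.9 at ZT12. The part of any of these cells in the MRP changes was not tested.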

How the data were processed

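Liver ribosome profiling and total RNA libraries were made by the authors from frozen liver of single mice, with RNase I footprinting and ribosomal RNA depletion. Per the submitters' processing notes, cutadapt 3.5, Bowtie2 and STAR 2.70f were used. The counting tool is not given in the sources used here. The deposited values are raw read counts per gene, 1 table per sequencing run, with no header. From the values, column 3 was read as CDS and column 2 as 5′ UTR. The 77 tables of 48 libraries were used, and the runs of the 29 libraries with 2 runs were summed. CDS counts were scaled by upper quartile over the 48 libraries, and low counts were removed with filterByExpr of edgeR (at least 10 in enough libraries and 15 in total), which left 10696 genes. Fits used edgeR 4.0.16 (R 4.3.3), quasi-likelihood, with 12 libraries per line, or 24 for time over all genotypes. TE was tested as the group effect in RPF minus that in RNA, with a term for each mouse. TE per mouse used a prior count of 0.5. P-values were adjusted by Benjamini-Hochberg over all genes tested. They judge a difference between groups against the spread between mice. Scripts were tested on simulated data. Alternatives were TMM, DESeq2 1.42.0, limma 3.58.1, other filters, the first run alone, RNA over all columns, other sample sets, a replicate block and each mouse left out. Members were named when called, up to 10 per comparison by smallest adjusted p, otherwise up to 3 with the smallest p, together with the 5 highest and lowest in TE, up to 3 each with the highest 5′ UTR share and RNA spread, those not tested, and subunits with other symbols. Members, gene lists and tests were chosen with earlier results of these data known.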

Additional observations from a re-analysis of the deposited data

Results flagged for a closer look

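The change from ZT5 to ZT12 in footprints differed between the Aco1 and Ireb2 lines for 5 members by a test of the difference itself (edgeR quasi-likelihood, adjusted over all genes). The log2 differences, Aco1 line minus Ireb2 line, were -0.62 for Mrpl43, -0.93 for Mrps6, -0.54 for Mrps18a, -0.59 for Mrpl30 and -0.55 for Mrpl57. For each of them the fitted change was negative in the Aco1 line (-0.50, -0.62, -0.44, -0.32 and -0.31) and positive in the Ireb2 line (0.12, 0.31, 0.11, 0.26 and 0.24), and of these the first 3 in the Aco1 line were called. Respiratory chain genes (12 lower of 92) and cytosolic ribosomal proteins (25 lower of 74) also differed between lines in this test, with medians of -0.28 and -0.98 against -0.19 for the 76 MRP mRNAs. Of all genes, 3.19% were called. With 1 mouse left out the count of members ran from 0 to 15, while that of all genes ran from 161 to 770 of 10696. The count of members was 0 without Aco1+/+ ZT5 replicate 1 or 2, Aco1-/- ZT5 replicate 1, Ireb2+/+ ZT5 replicate 1 or Ireb2-/- ZT12 replicate 3, and 15 without Aco1-/- ZT5 replicate 3.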

How the results depend on the processing

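Counts of members called moved in these settings. Except for the difference between lines, calls over all genes are not set beside them, so a moved count was not read as a result about members. Knockout against control in RPF gave 1 with all 24 mice in one fit (0 to 1 with a mouse left out). ZT12 against ZT5 in RNA gave 1 in Aco1+/+ with only its 6 mice (0 to 1), 1 in Aco1-/- with RNA over all columns (0 to 1), and 0 in Ireb2-/- with RNA over all columns or all 24 mice in one fit (0 with most mice left out). Over all genotypes RNA gave 2 from the first run, 13 over all columns, 4 by DESeq2, 3 in the Aco1 line alone and 1 in the Ireb2 line alone (4 to 9). In RPF, Aco1+/+ gave 0 to 4 with a mouse left out, and Aco1-/- 2 from the first run and 14 with all 24 mice (1 to 14). Ireb2+/+ gave 2 with no filter or only its 6 mice, and 0 at a mean of at least 100 counts, from the first run, by DESeq2 or with all 24 mice (0 to 1). Ireb2-/- gave 1 at that mean or from the first run (0 to 1). Over all genotypes RPF gave 7 at that mean, 6 from the first run and 5 in the Ireb2 line alone (7 to 21). The difference between lines gave 0 to 15 members, and 161 to 770 of all genes. TE gave 1, Mrpl15, under TMM, the first run, DESeq2 or without Ireb2+/+ ZT5 replicate 3. With single lines, 2 changes reversed, Mrpl20 RNA (-0.0051, Aco1 line) and Mrps18c RPF (0.0073, Ireb2 line). Causes were not tested. The line comparisons, fits of 1 line, and fits over all genotypes without each mouse were chosen after seeing the data.

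Over all genes, correlations of the deviations of same-numbered mice ran from -0.403 to 0.258 (medians -0.009 to 0.024), with 2 to 5 of 12 libraries closest to their own number, so the numbers were not taken as pairs. In MRP footprints replicate 3 was the lowest of both Aco1-line genotypes at ZT5. A replicate block gave 8 instead of 5 members in RPF in Aco1-/-, and 1 instead of 0 in TE over all genotypes.

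The median member had 48.75 RNA counts per library, within-group variation was 17.7% in RNA and 16.3% in RPF, and groups held 3 mice. A difference that was not called is not shown to be absent.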
